A study of Mus musculus with 4 samples.

Results

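The 42 genes described here run chromosome duplication and cell division. They were taken by symbol as a fixed set of 20 DNA replication genes and 22 mitosis genes, out of 27998 genes counted in every library. No cutoff on a measured value picked them, but the set was chosen with earlier results of these data known. Transcripts were counted in single epithelial cells from mouse small intestinal crypts, sorted as live cells positive for EpCAM and negative for CD45, and sequenced from the 3′ end with the 10x Genomics kit. There were 4 libraries from 8-week-old mice, 2 labelled slc7a5 fl/fl and 2 labelled slc7a5 IEC-KO. In slc7a5 IEC-KO mice, Cre under the villin promoter deletes the floxed exon 1 of Slc7a5, a neutral amino acid transporter subunit, in the intestinal epithelium. The slc7a5 fl/fl controls were cohoused littermates, matched for sex and age, that carry the same floxed alleles without Cre, and the villin-Cre line had been backcrossed to C57BL/6J. The labels name 4 mice but do not say how these were divided among the libraries, so the p-values below measure the spread between these libraries, which may be technical.

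Before a cell divides, the MCM complex is loaded onto replication origins by Cdc6 and Cdt1 and is then switched on as the helicase that opens the DNA. Pcna, Fen1 and Lig1 work at the moving fork, and Rrm1, Rrm2, Tyms and Tk1 supply the deoxynucleotides. Transcription of many of these genes is driven by E2F factors at the entry into S phase. Mitosis genes are switched on later, largely in G2, by the MuvB complex with B-Myb and FoxM1, and their promoters often hold CCAAT boxes, bound by NF-Y, and a cell cycle homology region (CHR). Their products build the kinetochore and the spindle, and the anaphase promoting complex then removes many of them by degradation. In the crypt, stem cells and transit amplifying cells divide fast, whereas mature Paneth cells, which secrete alpha-defensins, do not divide.

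The promoters of both lists were searched for short words that such factors are known to bind. RefSeq promoter sequences (build GRCm38.p6) were found for 36 of the 42 members, 17 replication and 19 mitosis genes, with none for Atad2, Aurkb, Ccna2, Gins2, Mcm4 and Tpx2. The 250 bases before each start were searched on both strands for the E2F words TTTGGCGC, TTTCCCGC, TTTGCCGC and TTTCGCGC, for the NF-Y word CCAAT, and for the CHR words TTTGAA and TTCGAA. An E2F word stood in 6 of 17 replication genes (35.3%, namely Cdc6, Hells, Mcm5, Mcm6, Mcm7 and Uhrf1) and in 1 of 19 mitosis genes (Cdk1), against 2.16% of all 27025 genes with a promoter sequence. CCAAT stood in 10 of 17 replication genes (58.8%) and in 17 of 19 mitosis genes (89.5%, absent from Birc5 and Nusap1), against 37.5% of all genes. At least 2 CCAAT words were found in 7 of the 17 and 15 of the 19, against 11.3% of all genes. CCAAT together with a CHR word stood in 2 replication and 7 mitosis genes, against 7.93% of all genes. Words of different kinds were counted separately and can share letters where they meet, and E2F words can overlap among themselves, as they do in Mcm6. A match is a run of letters only, and binding was not measured.

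The 5 sequences printed here show these arrangements in genes whose levels are described further on. Each is given 5′ to 3′ in the direction of its gene, all 5 genes lying on the minus strand. It ends at the last base before the RefSeq or the GENCODE gene start, whichever lies further upstream. For this, 26 of the 250 bases searched were left off the end of Cdk1, with 1 of its 2 CHR words, and 9 off the end of Cdc20, with 1 of its 2 CCAAT words. Capitals mark the words searched. Mcm6 (chr1:128359706-128359955), a subunit of the MCM helicase, holds E2F words beside CCAAT boxes read on the opposite strand as ATTGG. Mcm2 (chr6:88898781-88899030), another subunit of that helicase, holds no E2F word, 1 CCAAT box and 1 CHR word. Cdk1 (chr10:69352939-69353162), the kinase that starts mitosis, holds all 3 kinds. Cdc20 (chr4:118437353-118437593), which activates the anaphase promoting complex, shows the other CCAAT box and a CHR word close to its start. Top2a (chr11:99024190-99024439), the topoisomerase that untangles sister chromatids, holds 6 CCAAT boxes and 4 CHR words.
Mcm6: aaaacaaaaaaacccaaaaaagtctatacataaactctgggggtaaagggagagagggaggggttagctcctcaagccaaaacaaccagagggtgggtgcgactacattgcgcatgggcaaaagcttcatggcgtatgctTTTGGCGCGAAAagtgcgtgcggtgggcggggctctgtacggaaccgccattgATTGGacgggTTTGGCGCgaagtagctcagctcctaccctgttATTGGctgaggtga
Mcm2: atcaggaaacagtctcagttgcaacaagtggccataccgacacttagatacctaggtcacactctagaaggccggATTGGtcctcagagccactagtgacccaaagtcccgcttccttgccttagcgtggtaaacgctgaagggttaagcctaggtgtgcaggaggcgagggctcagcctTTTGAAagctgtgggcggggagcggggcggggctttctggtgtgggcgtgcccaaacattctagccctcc
Cdk1: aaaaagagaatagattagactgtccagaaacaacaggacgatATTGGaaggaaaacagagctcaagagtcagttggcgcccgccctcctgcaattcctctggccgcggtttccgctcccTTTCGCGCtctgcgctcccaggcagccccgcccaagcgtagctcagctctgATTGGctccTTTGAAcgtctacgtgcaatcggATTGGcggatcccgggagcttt
Cdc20: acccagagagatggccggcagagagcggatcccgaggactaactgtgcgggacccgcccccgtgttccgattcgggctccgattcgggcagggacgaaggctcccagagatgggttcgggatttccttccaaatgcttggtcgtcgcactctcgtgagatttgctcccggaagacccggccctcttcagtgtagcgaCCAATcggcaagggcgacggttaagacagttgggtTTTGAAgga
Top2a: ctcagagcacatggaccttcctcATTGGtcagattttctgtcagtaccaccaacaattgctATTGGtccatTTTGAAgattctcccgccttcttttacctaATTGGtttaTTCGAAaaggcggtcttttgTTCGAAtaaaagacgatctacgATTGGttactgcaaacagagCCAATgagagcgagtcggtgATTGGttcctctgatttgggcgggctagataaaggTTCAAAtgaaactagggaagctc

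Cells were divided by the share of their UMIs (unique molecular identifiers, which count captured transcripts) that fell on gene symbols starting with Defa. Defensin-high cells, the Paneth class of the rule, had a share of 30% or more (8325 of 26498 cells). Other cells had under 20% (15441), and 2732 cells between these borders were in neither class. Between the borders lay 120 (3.303%) and 89 (2.767%) of the slc7a5 fl/fl cells, against 1305 (13.04%) and 1218 (12.63%) of the slc7a5 IEC-KO cells. The rule thus left out a larger share of the slc7a5 IEC-KO cells. Whether each class held the same kinds of cells in both genotypes was not tested. The 7 Paneth markers outside the rule, such as Lyz1 and Itln1, summed to 56210 to 81070 CPM (counts scaled to a common library total) in defensin-high cells of the 4 libraries and to 21150 to 23760 in other cells, so they were present in both. Other cells made up 38.9% ± 3.17 of the slc7a5 fl/fl cells and 65.0% ± 2.56 of the slc7a5 IEC-KO cells (mean ± SD, n = 2). The lowest total of a cell was 8909 and 9670 UMIs in the slc7a5 fl/fl libraries and 3843 and 5858 in the slc7a5 IEC-KO libraries, and at most 132 cell barcodes were shared by any pair of libraries. Slc7a5 itself stood at TMM-scaled levels (trimmed mean of M values) of 2.59 and 2.79 CPM in other cells of the slc7a5 fl/fl libraries. In those of the libraries labelled slc7a5 IEC-KO it stood at 4.30 and 5.06, so it was higher there and not lower. In defensin-high cells the unscaled levels of Slc7a5 were 0.964 and 0.813 against 4.16 and 4.71 CPM. Its 3′ reads lie outside the deleted exon and check no label, so the directions below rest on the labels. The share of cells that were defensin-high was 55.6% and 60.6% under the slc7a5 fl/fl label, against 20.2% and 24.2% under the slc7a5 IEC-KO label.

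In other cells, all 42 members were lower in the slc7a5 IEC-KO than in the slc7a5 fl/fl libraries, and mitosis genes were lower by more than replication genes. UMIs were summed over the other cells of each library and compared with the edgeR quasi-likelihood test, in which 16.7% of the 12377 genes tested were called lower and 17.0% higher at an adjusted p below 0.05. All 20 replication genes were called lower, with a median log2 change of -0.48 and a range from -0.90 to -0.33. All 22 mitosis genes were called lower, with a median of -1.13 and a range from -1.29 to -0.83. The median over all genes tested was 0.0035. All 42 members passed the filter on low counts, and for each of them both slc7a5 IEC-KO libraries lay below both slc7a5 fl/fl libraries. How many of all genes tested were separated in this way was not counted, so this only describes the members. The lists overlapped at their edges, since the changes of Rrm1 and Tk1 reached those of the least changed mitosis genes, and Mki67, Top2a, Cks2 and Hmgb2 changed less than these 2. In such sums, fewer dividing cells and less RNA of these genes per dividing cell cannot be told apart.

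The subunits of the MCM helicase were lower in the slc7a5 IEC-KO libraries, by less than most other members. Mcm6 stood at 19.3 and 18.9 CPM in the slc7a5 fl/fl libraries and at 12.7 and 12.8 in the slc7a5 IEC-KO libraries (TMM-scaled CPM, as in all following values of single genes). Its log2 change was -0.58 ± 0.079 (SE), with an edgeR adjusted p of 1.1e-05. Mcm2 stood at 10.5 and 8.75 CPM against 7.16 and 7.97, a log2 change of -0.35 ± 0.12 with an edgeR adjusted p of 0.026. The gap between the groups was wide for Mcm6 and narrow for Mcm2, in which the lower slc7a5 fl/fl library came near the higher slc7a5 IEC-KO library. Mcm7 stood at 22.2 and 23.1 against 14.6 and 15.2 CPM (log2 change -0.60), and Mcm5 at 17.3 and 17.4 against 12.6 and 12.7 (-0.46). Mcm3 changed by -0.34 and Mcm4 by -0.37.

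Among the factors that load and start the helicase, Cdc6 was detected at few UMIs. Cdc6, which loads the MCM ring, stood at 2.54 and 2.98 CPM against 1.74 and 1.97, from 46, 46, 71 and 104 UMIs, with a log2 change of -0.56 and an edgeR adjusted p of 0.042. Cdt1, its partner in loading, changed by -0.38, and Gins2, a subunit of the active helicase, by -0.57. Tcf19, a nuclear protein induced at the entry into S phase, had the smallest change of the 42 (-0.33).

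At the fork, Pcna, the ring that holds polymerases on the DNA, stood at 26.7 and 26.8 CPM in the slc7a5 fl/fl libraries and at 18.1 and 22.2 in the slc7a5 IEC-KO libraries. Its log2 change was -0.40 ± 0.088, with an edgeR adjusted p of 0.0014. The slc7a5 IEC-KO libraries differed from each other by more than the slc7a5 fl/fl libraries did, as they did for Lig1, which joins Okazaki fragments and stood at 41.0 and 41.4 against 27.2 and 31.7 CPM (-0.48). Fen1, which trims these fragments, changed by -0.45. Of the members that work on chromatin at replication, Hells, a remodeller, changed by -0.58, Uhrf1, which keeps DNA methylation through replication, by -0.48, and Atad2, a bromodomain ATPase, by -0.47.

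The nucleotide supply genes held the largest changes of the replication list. Tk1, thymidine kinase, stood at 42.2 and 41.7 CPM in the slc7a5 fl/fl libraries and at 22.6 and 22.4 in the slc7a5 IEC-KO libraries, a log2 change of -0.90. Rrm1, the large subunit of ribonucleotide reductase, stood at 23.3 and 21.2 against 11.7 and 12.3 CPM (-0.90), and its small subunit Rrm2 at 19.5 and 19.1 against 11.8 and 12.8 (-0.64). Tyms, thymidylate synthase, stood at 48.3 and 49.4 against 32.4 and 33.1 CPM (-0.58). In each of the 4, the difference between the groups was several times that between libraries of a group.

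The cyclins and their kinase were lower by more. Ccnb1, cyclin B1, stood at 43 and 46.5 CPM in the slc7a5 fl/fl libraries and at 17.9 and 18.9 in the slc7a5 IEC-KO libraries, with a log2 change of -1.28 ± 0.071 and an edgeR adjusted p of 5.4e-11. Ccnb2, cyclin B2, stood at 47.5 and 48.7 against 21.4 and 20.7 CPM (-1.19), and Ccna2, cyclin A2, at 39.7 and 37.3 against 16.4 and 16.9 (-1.21). Cdk1, their partner, stood at 53.6 and 55.3 against 28.9 and 29.3 CPM, a log2 change of -0.90 ± 0.066 with an edgeR adjusted p of 2.6e-09. The change of Cdk1 was thus smaller than that of the 3 cyclins it pairs with, although this difference was not tested. Cks2, a small subunit bound to the kinase, changed by -0.87.

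Cdc20 and Ube2c act together at the exit from mitosis. Cdc20 stood at 50.3 and 57.9 CPM in the slc7a5 fl/fl libraries and at 22.3 and 22 in the slc7a5 IEC-KO libraries, the largest change of the 42 (-1.29 ± 0.074, edgeR adjusted p 8.7e-11). Ube2c, the ubiquitin-conjugating enzyme of the anaphase promoting complex, stood at 183 and 192 against 83.2 and 86.4 CPM (-1.14), close to the median of the mitosis list. Both slc7a5 IEC-KO libraries were close to each other for these genes.

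Of the mitotic kinases and the spindle, Aurka, which matures the centrosomes, stood at 23.9 and 25.8 against 10.5 and 10.8 CPM (-1.22), and Plk1, a kinase that acts from mitotic entry to exit, at 22.5 and 24.0 against 9.12 and 11.2 (-1.18). Nusap1, which bundles spindle microtubules, stood at 52.6 and 54.2 against 20.3 and 26.6 CPM (-1.18), and Tpx2, which activates Aurka on the spindle, changed by -1.10. For Nusap1 and Plk1 the second slc7a5 IEC-KO library stood above the first, with both well below the slc7a5 fl/fl libraries.

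At the centromere, Cenpa, the histone variant that marks it, stood at 75.1 and 82.0 against 35.8 and 34.1 CPM (-1.17), and the kinetochore motor Cenpe at 24.9 and 25.9 against 11 and 11 (-1.21). Cenpf, a large kinetochore protein, stood at 59.3 and 54.2 against 25.8 and 26.2 CPM (-1.13). The checkpoint kinase Bub1 was the least detected of the mitosis genes, at 4.64 and 4.41 against 2.13 and 2.46 CPM (-0.97). Aurkb, the kinase of the chromosomal passenger complex, stood at 21.6 and 19.8 against 9.63 and 9.13 CPM (-1.15). Its partners Birc5 and Cdca8 changed by -0.96 and -0.99, and Cdca3, which triggers the destruction of the Cdk1 inhibitor Wee1, by -1.07.

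Mki67, Top2a and Hmgb2 had changes near the small end of the mitosis list. Mki67, which coats mitotic chromosomes and serves as the common marker of cycling cells, stood at 57.2 and 51.4 CPM in the slc7a5 fl/fl libraries and at 29.7 and 31.6 in the slc7a5 IEC-KO libraries (-0.83 ± 0.071, edgeR adjusted p 2.8e-08). Top2a stood at 135 and 141 against 70.7 and 81.1 CPM (-0.86 ± 0.071, edgeR adjusted p 1.4e-08). Hmgb2, a chromatin protein, stood at 464 and 478 against 249 and 262 CPM (-0.88). All 3 were lower in both slc7a5 IEC-KO libraries than in either slc7a5 fl/fl library.

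**Figure D1:**
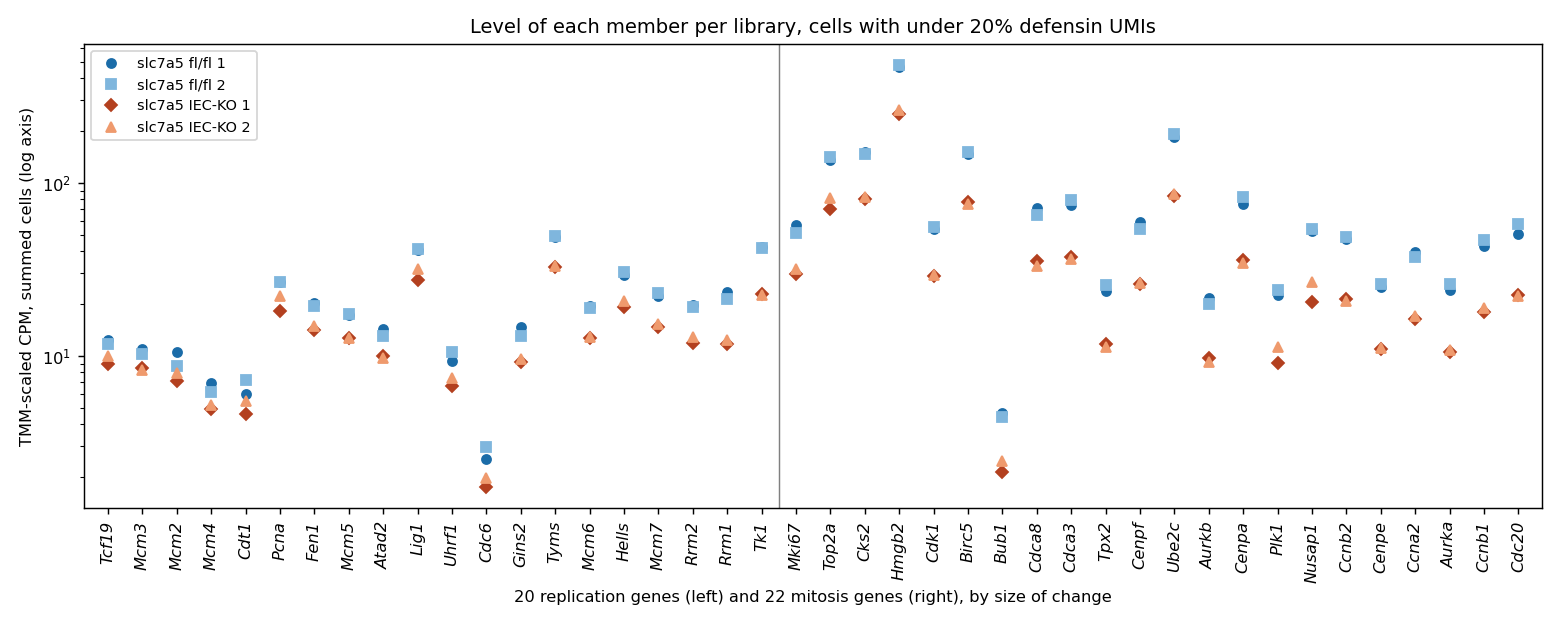
TMM-scaled CPM (log axis) of each of the 42 members in the other cells of each of the 4 libraries, replication genes on the left and mitosis genes on the right, ordered by the size of the change. For each gene both slc7a5 IEC-KO points lie below both slc7a5 fl/fl points, with a median fall of the group level of 1.40-fold for replication and 2.20-fold for mitosis genes. The share of all genes tested that were so separated was not counted.

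Fewer members passed the test when only deeper cells were kept. A limit of 9670 UMIs left 1083 of 1493 and 1178 of 1178 other cells in the slc7a5 fl/fl libraries. It left 666 of 6680 and 1711 of 6090 in the slc7a5 IEC-KO libraries. The number of cells thus changed with their depth, and the part of each in the lost calls was not tested. With 1 lower limit of 9670 UMIs per cell for all libraries, 34 of 42 members were called lower, where 14.9% of the 11478 genes tested were called lower and 14.3% higher, and Mcm2, Mcm3, Mcm4, Tcf19, Gins2, Cdc6, Cdt1 and Uhrf1 were not. The median log2 change was then -0.38 for replication and -0.88 for mitosis genes. Over the main setting and the alternatives in other cells, all 22 mitosis genes were called lower each time, and 12 to 20 of the replication genes were. Scaled by library size only, all 42 members were lower with medians of -0.63 and -1.28, while the median of all genes moved to -0.15 and the genes called lower and higher became 30.6% and 9.47%.

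The ratio of replication to mitosis UMIs is free of any scaling between libraries, but it depends on the mix of cells summed. Its log2 value in other cells was -2.20 and -2.25 in the slc7a5 fl/fl libraries and -1.81 and -1.76 in the slc7a5 IEC-KO libraries. Both slc7a5 IEC-KO values were higher, by 0.44 on the log2 scale on average. A two-sided exact permutation test over 2 against 2 libraries gave p = 0.333, the smallest it allows. In other cells with a UMI of at least 5 members at 3500 UMIs per cell, the ratio was -2.34 and -2.40 against -2.02 and -1.95. In other cells with under 5 members it averaged -1.20 in the slc7a5 fl/fl and -1.24 in the slc7a5 IEC-KO libraries. The part of the cell mix in the difference of 0.44 was not tested. In defensin-high cells the values were -1.62 and -1.61 against -1.47 and -1.43, a difference of 0.17, and 0.068 with each cell thinned to 3500 UMIs.

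**Figure D2:**
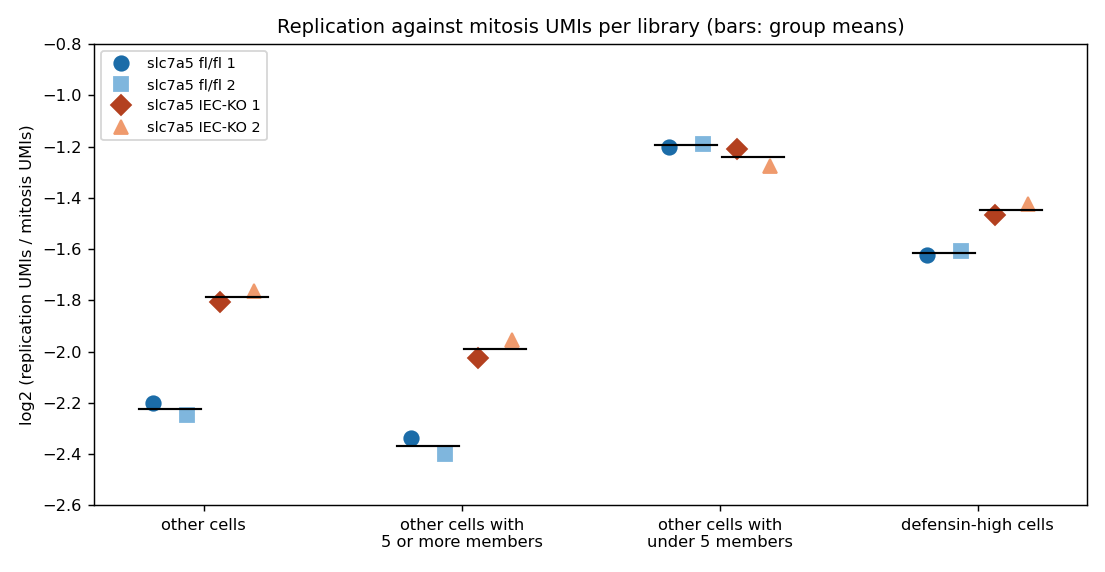
Log2 of replication over mitosis UMIs in each library (points, with bars at the group means) for all other cells, subsets of these and defensin-high cells. In all other cells the slc7a5 IEC-KO points stand at -1.81 and -1.76, above the slc7a5 fl/fl points at -2.20 and -2.25.

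Fewer of the other cells of the slc7a5 IEC-KO libraries held several members at once. After each cell had been thinned at random to 3500 UMIs, at least 5 of the 42 members had a UMI in 576 of 1493 other cells of the first slc7a5 fl/fl library (38.6%, Clopper-Pearson 95% interval 36.1 to 41.1) and in 457 of 1178 of the second (38.8%, 36.0 to 41.6). The slc7a5 IEC-KO libraries had 1171 of 6680 such cells (17.5%, 16.6 to 18.5) and 1127 of 6090 (18.5%, 17.5 to 19.5). These intervals cover counting error only. The group means were 38.7% ± 0.148 and 18.0% ± 0.693 (SD, n = 2), a difference of -20.7 percentage points with an exact permutation p of 0.333, the smallest possible. Before thinning the shares were 51.7% and 54.7% against 22.3% and 30.5%.

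Defensin-high cells were taken as the background of this share, on the assumption that they do not divide, as mature Paneth cells do not. Whether the cells of this class were mature was not tested. Only 5, 7, 3 and 2 defensin-high cells of the slc7a5 fl/fl and slc7a5 IEC-KO libraries held at least 5 members at 3500 UMIs, which is 0.248% and 0.359% against 0.149% and 0.0856%. At their full depth, with median totals of 46965 and 52851.5 against 13782 and 20159 UMIs, these shares were 85.5% and 87.7% against 19.0% and 48.0%. The unthinned share of this class therefore went with depth. In the cells between the borders the thinned share was 5.83% and 3.37% against 2.15% and 1.97%.

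The difference in other cells did not rest on the limit of 5 members. With at least 3 members the shares were 45.6% and 47.1% against 25% and 27.8%, and with at least 8 they were 32.2% and 31.8% against 12.7% and 12.7%. Few cells lay at the limit, as 32, 32, 164 and 189 cells held exactly 4 members. With 1 lower limit of 9670 UMIs the shares were 44.2% and 38.8% against 24.5% and 26.8%.

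**Figure D3:**
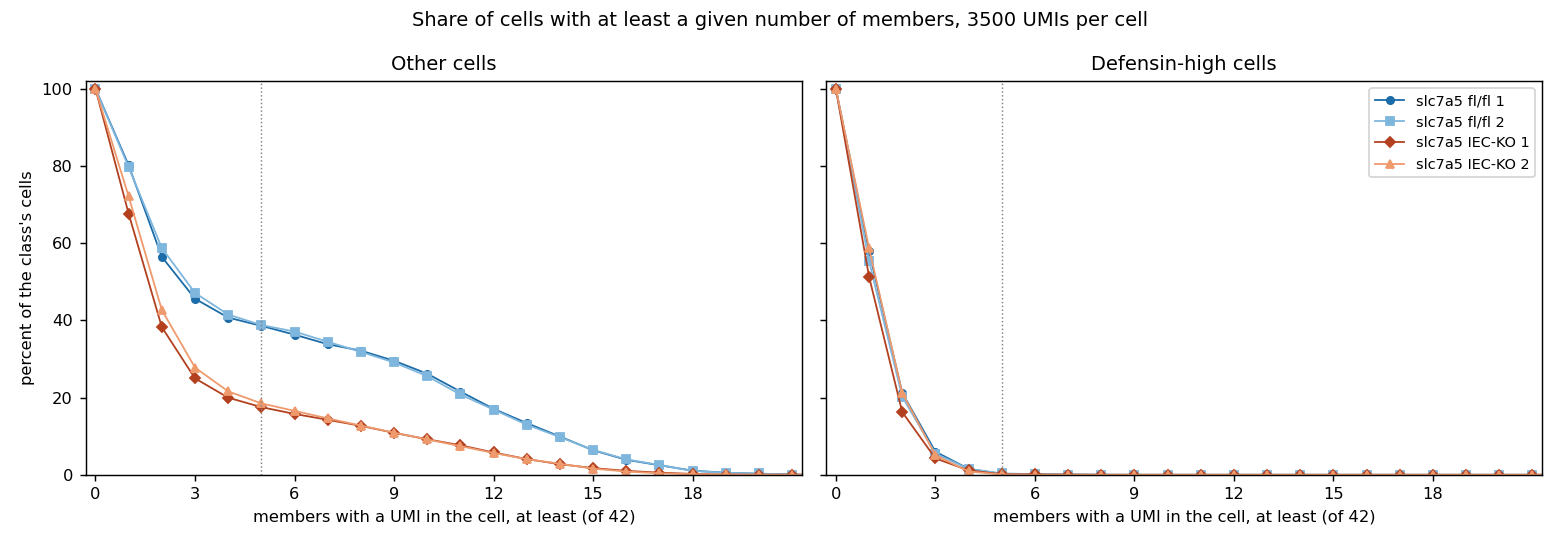
Percent of cells (vertical axis) with at least a given number of the 42 members (horizontal axis) at 3500 UMIs per cell, 1 line per library, in other cells and in defensin-high cells. At 5 members (dotted line) the other cells of the slc7a5 fl/fl libraries stand at 38.6% and 38.8% and those of the slc7a5 IEC-KO libraries at 17.5% and 18.5%, while defensin-high cells are below 0.4% in each library.

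The makeup of the other cells moved with these values. Enterocyte markers summed to 4577 and 4975 CPM in the slc7a5 fl/fl and 2716 and 2424 in the slc7a5 IEC-KO libraries (unscaled CPM of whole lists here), and enteroendocrine markers to 875 and 818 against 1867 and 1689. The hormone gene Gip held the largest difference of the enteroendocrine list, at 281 and 262 against 1123 and 970 CPM. Gcg, Pyy, Chga and Chgb were also higher in both slc7a5 IEC-KO libraries, while Sct, Cck and Neurod1 overlapped between the groups. Stem cell markers summed to 199 and 209 against 148 and 166 CPM, with Olfm4 and Lgr5 called lower (log2 changes -1.03 and -0.52). The Paneth markers outside the rule summed to 21400 and 21150 against 23760 and 22870 CPM, and single markers moved both ways. Itln1 (8175 and 7979 against 13780 and 13350 CPM, unscaled), Mmp7 and Habp2 were higher in the slc7a5 IEC-KO libraries. Lyz1 (8361 and 8393 against 6332 and 5941 CPM), Ang4, Mptx2 and Clps were lower. The goblet list summed to 66600 to 69390 CPM in the 4 libraries, within which single markers moved both ways. Muc2, the main mucin, and Spdef, a goblet transcription factor, were called higher (0.73 and 0.67), Zg16, a mucus lectin, was called lower (-0.20), and Tff3 (0.14), Fcgbp (0.10) and Clca1 (-0.07) were not called. Without cells holding 100 or more UMIs of goblet markers other than Tff3, the share with at least 5 members was 49.2% and 49.8% against 22.1% and 22.8%. Dissociation stress genes summed to 128 and 122 against 137 and 139 CPM, and single genes moved both ways. Atf3 (1.69 and 1.23 against 13.25 and 12.43 CPM, unscaled) and Junb were higher in both slc7a5 IEC-KO libraries. Fos, Fosb and Hspa1a were lower, and Jun, Egr1 and Hspa1b overlapped. Immune markers summed to 5.24 to 6.64 in all libraries, nearly all of it Lyz2. Tuft markers summed to 48.3 to 64.4 CPM, with overlapping groups. Of the other cells, 0.67% and 0.17% in the slc7a5 fl/fl and 7.44% and 6.78% in the slc7a5 IEC-KO libraries were flagged as nearest to simulated doublets. Flagging took a number of cells fixed by the size of each library, 2.92% and 2.58% of all cells against 8.01% and 7.71%. These shares therefore do not compare the genotypes. Without the flagged cells 42 members were still called lower and the mean shares with at least 5 members were 38.6% and 17.7%. The part of the cell makeup in the lower member levels was not tested.

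Counted over all cells of a library, whatever their class, those with at least 5 members were 588 of 3633 (16.2%) and 467 of 3217 (14.5%) in the slc7a5 fl/fl libraries. In the slc7a5 IEC-KO libraries they were 1202 of 10004 (12.02%) and 1153 of 9644 (11.96%). With 1 lower limit of 9670 UMIs these shares of all cells were 15.3% and 14.5% against 6.71% and 9.91%. Summed over all cells, the direction turned with the scaling. The unscaled level of the mitosis list was 459 and 404 CPM in the slc7a5 fl/fl and 512 and 503 in the slc7a5 IEC-KO libraries, and that of the replication list 118 and 104 against 153 and 157. With TMM scaling over all cells, edgeR called 38 of 42 members lower at an adjusted p below 0.05 (median log2 change -0.59, with 21.0% of 13574 genes called lower), and Mcm4, Pcna, Tcf19 and Fen1 were not called. The share of all UMIs taken by Defa genes, 35.6% and 39.1% against 19.9% and 22.2%, moved with these values, as did the share of other cells, in which the members were high.

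Inside the cells with at least 5 members, which were chosen by the members themselves and are therefore only described, the replication list was at 852 and 821 CPM in the slc7a5 fl/fl and 869 and 874 in the slc7a5 IEC-KO libraries. The mitosis list was at 4300 and 4334 against 3533 and 3384 CPM (unscaled). The replication levels of the 4 libraries lay close together, and the mitosis levels were lower in both slc7a5 IEC-KO libraries. Cells with at least 3 replication and under 3 mitosis members made up 5.03% and 6.13% of these cells against 9.99% and 10.5%, and cells with more replication than mitosis members 11.98% and 12.9% against 20.3% and 19.3%. The median number of mitosis members per cell was 9 and 9 against 7 and 7. All 22 mitosis genes had a lower mean CPM in the slc7a5 IEC-KO cells (median log2 difference -0.38), as did 4 of the 20 replication genes (median 0.12).

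Next, cells were chosen without the members. Other cells were taken in which at least 15 of the further cell cycle genes described below, none of them a member, had a UMI at 3500 UMIs per cell, a limit set after the data had been seen. These were 548 and 433 cells in the slc7a5 fl/fl libraries (36.7% and 36.8% of other cells) and 1117 and 1033 in the slc7a5 IEC-KO libraries (16.7% and 17.0%). The list behind this choice holds more mitosis than replication genes, and its genes were themselves lower in the slc7a5 IEC-KO libraries, so the choice is not free of the difference compared.

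In these cells mitosis genes were still lower and replication genes were not. Of 22 mitosis genes edgeR called 18 lower and 0 higher (median log2 change -0.35), where 3.22% of the 10749 genes tested were called lower and 4.79% higher at an adjusted p below 0.05. Cdc20 stood at 116 and 136 CPM in the slc7a5 fl/fl and 84.9 and 79.1 in the slc7a5 IEC-KO libraries (-0.62), and Ccnb1 at 100 and 108 against 69.9 and 71.3 (-0.56). Bub1, Cdk1, Mki67 and Top2a did not pass the test. For all 22 genes the libraries of the groups did not overlap. The share of all genes tested without such overlap was not counted, so this only describes the list and adds nothing to the calls.

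Of the 20 replication genes in these cells, 0 were called lower and 2 higher, with a median log2 change of 0.20. Tcf19 stood at 27.0 and 25 CPM in the slc7a5 fl/fl and 33.5 and 36.0 in the slc7a5 IEC-KO libraries (0.42, edgeR adjusted p 0.0094). Lig1 stood at 90 and 89.5 against 101 and 114 CPM (0.27, edgeR adjusted p 0.027). For 14 replication genes both slc7a5 IEC-KO libraries lay above both slc7a5 fl/fl libraries, for Rrm1 and Tk1 they lay below, and 4 genes overlapped. The share of all genes tested that were separated in this way was not counted, so these counts only describe the list. DESeq2 called 0 of the 20 replication genes lower and 0 higher. With 1 lower limit of 9670 UMIs, 12 members were called, all of them lower, where 1.52% of genes were called lower and 3.44% higher. The replication median was then -0.05, so the higher level of replication genes was not seen in the deeper cells alone.

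**Figure D4:**
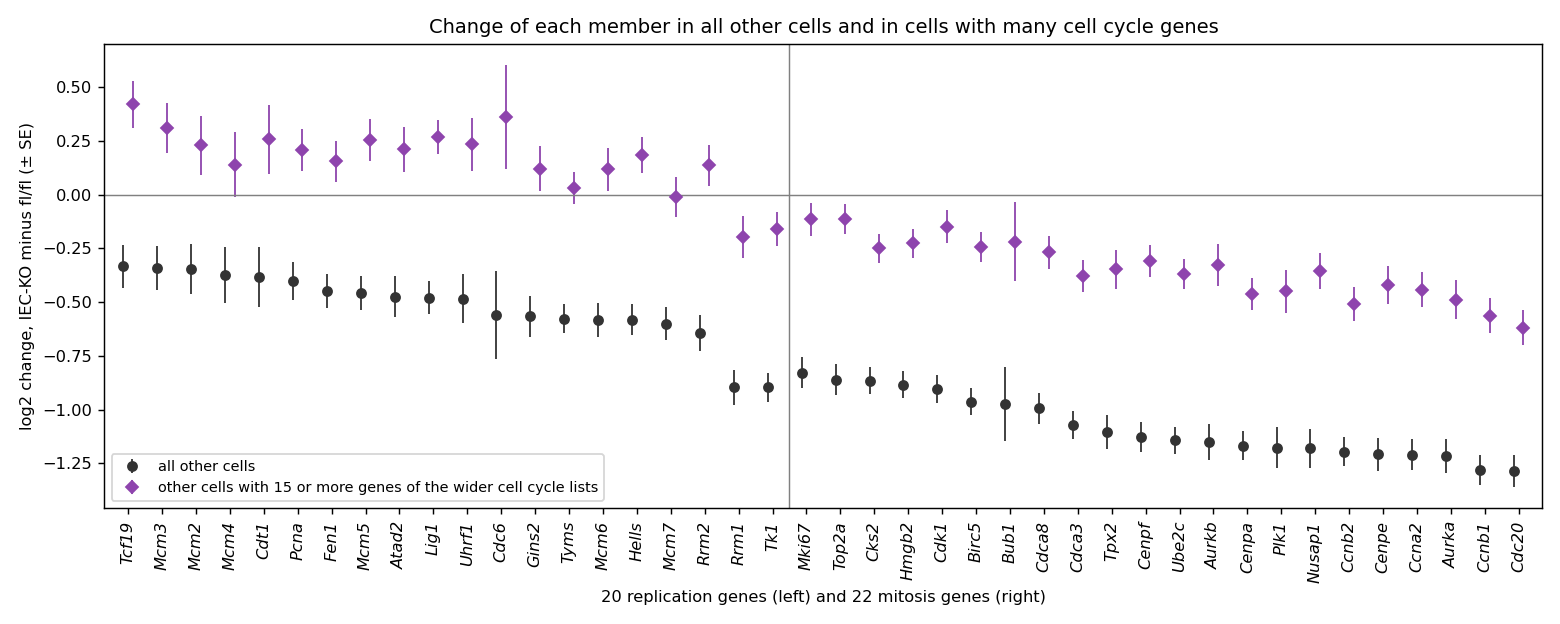
Log2 change between genotypes (slc7a5 IEC-KO minus slc7a5 fl/fl, ± SE from edgeR) of each member in all other cells and in other cells with 15 or more further cell cycle genes, replication genes on the left and mitosis genes on the right. In the second set of cells the mitosis genes lie below 0 (median -0.35) and most replication genes above it (median 0.20).

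Defensin-high cells held few UMIs of the members relative to their depth, and these were lower too in the slc7a5 IEC-KO libraries when scaled by TMM. All 42 members passed the filter, and edgeR called 37 lower and 0 higher, where 19.8% of the 12492 genes tested were called lower and 20.1% higher at an adjusted p below 0.05. The median log2 change was -0.61 for replication and -0.88 for mitosis genes, against -0.00036 over all genes. Mcm2 (-0.31), Mcm4 (-0.48), Pcna (-0.23), Cdc6 (-0.63) and Fen1 (-0.15) did not pass the test. Ccnb1 stood at 7.16 and 7.49 CPM in the slc7a5 fl/fl and 2.70 and 2.98 in the slc7a5 IEC-KO libraries (-1.35), and Mki67 at 11.9 and 10.3 against 5.99 and 6.28 (-0.85). Marker lists differed between the groups in this class as well (unscaled CPM of whole lists), with dissociation stress genes at 34.1 and 31.6 in the slc7a5 fl/fl and 65.9 and 68.7 in the slc7a5 IEC-KO libraries. Enterocyte markers stood at 1257 and 1185 against 665 and 763 CPM, stem cell markers at 58.5 and 56.9 against 77.9 and 84.7, enteroendocrine markers at 700.3 and 712 against 877 and 922, and immune markers, nearly all Lyz2, at 36.9 and 28.9 against 15.5 and 12.6. The sums of the goblet and of the tuft list overlapped between the groups. Within the goblet list Muc2 (1137 and 1050 against 2069 and 2374 CPM), Spdef and Tff3 were higher in both slc7a5 IEC-KO libraries. Zg16 (3859 and 3637 against 2785 and 2958 CPM) and Clca1 were lower, and Fcgbp overlapped. The Paneth markers outside the rule summed to 81070 and 73320 against 68960 and 56210 CPM, and single markers moved both ways. Lyz1 (36010 and 32850 against 18450 and 14210 CPM), Ang4, Mptx2 and Clps were lower in the slc7a5 IEC-KO libraries. Itln1 (25530 and 22620 against 37310 and 31260 CPM), Mmp7 and Habp2 were higher. Within the stem list Slc12a2 (33.2 and 31.5 against 48.2 and 54.1 CPM), Lgr5, Axin2, Smoc2 and Rnf43 were higher, and Ascl2, Olfm4 and Gkn3 lower. These sums are unscaled and cannot be set against the TMM-scaled changes of the members, and their directions may depend on the scaling. The part of the marker lists in the member levels was not tested.

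This result hung on the scaling. Scaled by library size only, 8 members were called lower and 3 higher in defensin-high cells, where 3.63% of all genes tested were called lower and 70.4% higher. The median log2 change of the members was then -0.16, while the median of all genes moved to 0.62. The unscaled mitosis list was at 195 and 184 CPM in the slc7a5 fl/fl and 157 and 184 in the slc7a5 IEC-KO libraries, and the replication list at 63.4 and 60.3 against 56.8 and 68.3, so their libraries met or overlapped. At 3500 UMIs per cell 39 members could be tested, and 24 were called lower and 0 higher, where 11.3% of 8861 genes were called lower and 11.3% higher.

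The changes of 8 members differed between the classes, by a test of the difference itself over 8 sums with the library as a block. Here 22.3% of 13039 genes were called in either direction at an edgeR adjusted p below 0.05, so 8 of 42 members lay within the background. Uhrf1 fell by more in defensin-high cells, where it stood at 3.30 and 3.23 against 1.74 and 1.53 CPM (log2 change -1.02, difference -0.54). Hmgb2 fell by less there, at 40.1 and 42 against 28.7 and 35.1 CPM (-0.35, difference 0.54). Ube2c, Ccnb2, Ccna2, Cdc20, Aurka and Cks2 also fell by less in defensin-high cells, with differences from 0.17 to 0.40.

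**Figure D5:**
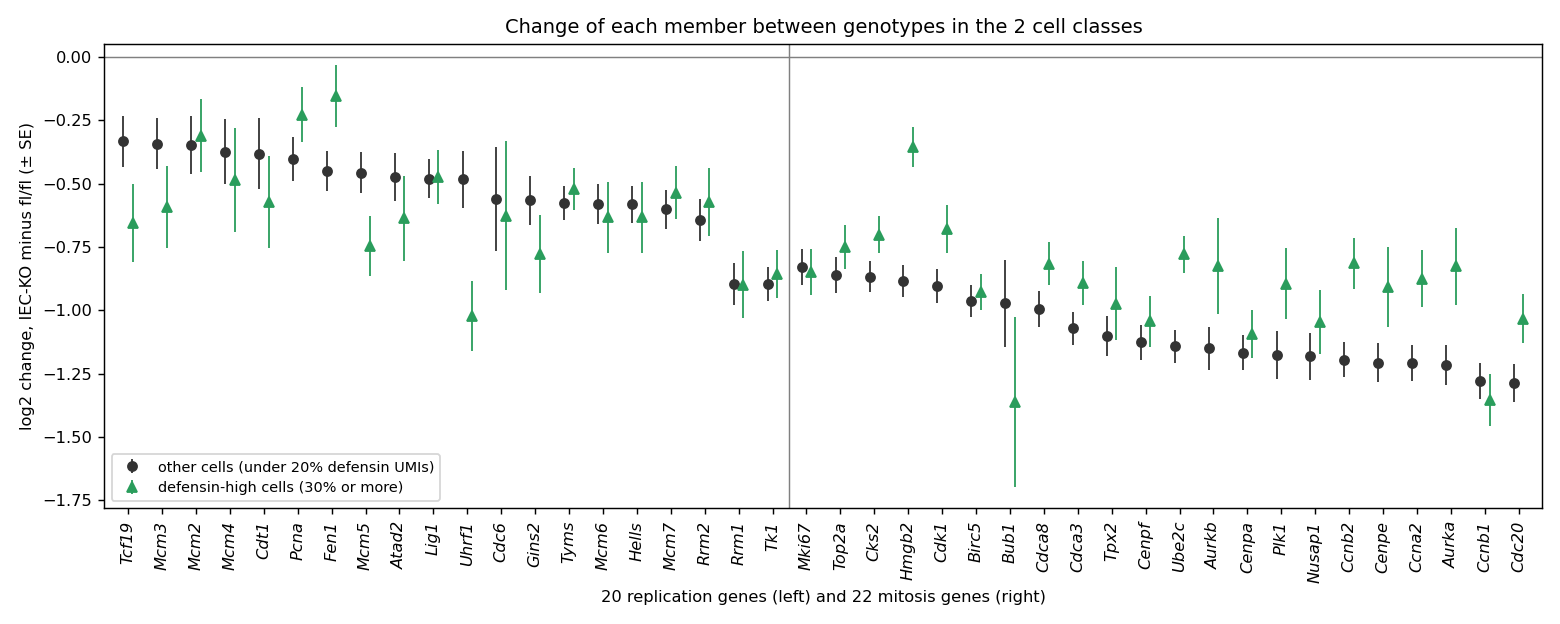
Log2 change between genotypes (slc7a5 IEC-KO minus slc7a5 fl/fl, ± SE from edgeR) of each member in other cells and in defensin-high cells, with TMM scaling in each class. All points lie below 0, with medians of -0.48 and -0.61 for replication and -1.13 and -0.88 for mitosis genes in other and defensin-high cells.

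Further genes of the same pathways, listed by role and without the members, followed the same order in other cells. Of 170 tested, 117 were called lower and 7 higher (median log2 change -0.52), where 16.7% of all genes in this fit were called lower and 17.0% higher. Of origin licensing and firing genes 7 of 18 were lower and 0 higher (median -0.31), of polymerases and fork factors 15 lower and 1 higher of 23 (-0.37), and of nucleotide supply genes 6 lower and 0 higher of 13 (-0.16). Among the large falls in the replication lists were those of Dbf4 (-0.80), the activator of the origin-firing kinase, Ticrr (-0.79), which loads Cdc45, the primase subunit Prim2 (-0.98), the clamp loader subunit Rfc5 (-0.75), and the serine hydroxymethyltransferase Shmt1 (-0.80). Rfc1, the large subunit of that clamp loader, was the 1 replication factor called higher (0.52), at 63.0 and 58.6 CPM in the slc7a5 fl/fl and 89.4 and 85.7 in the slc7a5 IEC-KO libraries.

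The lists of G1/S control and of CDK inhibitors and antiproliferative genes held calls in both directions, and in this fit 16.7% of all genes were lower and 17.0% higher. Of 21 G1/S genes 8 were lower and 3 higher (median -0.24), and the share called higher lay under that of all genes. Among the lower ones were E2f8 (-0.86), an E2F repressor, and Rbl1 (-0.70), a pocket protein. Rb1 (0.29), a relative of Rbl1, and the cyclin Ccnd3 (0.23) were higher. Of 9 inhibitor genes 3 were lower and 3 higher (median 0.10). The inhibitors Cdkn2c (-0.77) and Cdkn2d (-0.55) were lower, and the antiproliferative genes Btg2 (0.27) and Btg1 (0.23) were higher, although the libraries of Btg1 overlapped between the groups.

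The mitosis lists moved most, in the same fit with 16.7% of all genes called lower. Kinetochore and checkpoint genes were lower in 21 of 22 (median -0.83), with Bub1b (-1.20) and Ndc80 (-1.19) in front. Spindle, kinesin and cytokinesis genes were lower in 23 of 24 (-1.05), with Ckap2 (-1.34), a spindle pole protein, at 7.67 and 8.88 against 2.64 and 3.76 CPM, and the motor Kif11 (-1.20) at 12.7 and 11.7 against 5.52 and 5.12. Condensation and cohesion genes were lower in 18 of 19 (-0.66), with the condensin subunits Ncapg (-1.05) and Ncaph (-0.996) in front. Mitotic kinase and anaphase promoting complex genes were lower in 16 of 21 (-0.66), with the phosphatases Cdc25c (-1.18) and Cdkn3 (-1.18) in front.

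In defensin-high cells 84 of 169 of these genes were called lower and 15 higher (median -0.42), where 19.8% of all genes in this fit were lower and 20.1% higher. The share of these genes called higher thus lay under the background. The falls named by size again included mitosis genes, among them Nek2 (-1.25), a centrosome kinase, and Kifc1 (-1.20), a spindle motor, both below 1.5 CPM in each library. Spc25, a kinetochore subunit, stood at 6.59 and 6.16 CPM in the slc7a5 fl/fl and 2.81 and 3.17 in the slc7a5 IEC-KO libraries (-1.07). Genes called higher there included Rfc1 (1.03), at 22.1 and 23.0 against 48.7 and 43.9 CPM, the ribonuclease subunit Rnaseh2b (0.63), the p53-induced reductase subunit Rrm2b (0.87), the origin recognition subunit Orc2 (0.42), the CDK inhibitor Cdkn1b (0.53), Trp53 (0.43) and Rb1 (0.52). These directions hold for TMM scaling in this class, in which the scaling by library size moved the median of all genes to 0.62.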

How the data were processed

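The authors deposited raw UMI counts per gene and cell barcode for each of the 4 libraries after cell calling, unnormalized and without cell types. The submitters' processing notes name Cell Ranger 2.1.1 and mm10. Totals per library ran from 87922473 to 127094508 UMIs. All 26498 cells were kept and no unmapped column was found. No doublets were removed in the main setting. In an alternative, each cell was scored by its 30 neighbours among real and simulated mixed cells, and the top 0.8% for each 1000 cells in a library were dropped.

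Counts were summed per library and cell class (Defa share of 30% or more, or under 20%) and fitted in edgeR 4.0.16 with TMM scaling, filterByExpr and genotype as the only term, followed by its quasi-likelihood test, in R 4.3.3, with Benjamini-Hochberg adjustment over all genes tested at 0.05. The SE of a log2 change came from the same test. The dispersion was 0.00281 in other and 0.00293 in defensin-high cells. The difference between classes was the class by genotype term in 1 fit with the library as a block. For shares and ratios an exact permutation test over libraries was used, two-sided, after seeded thinning of each cell to 3500 UMIs for shares. The fits were tested on simulated data first. Gene positions and starts came from GENCODE M21 (GRCm38) by gene ID, promoter sequences from RefSeq.

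The members, the gene lists (further cell cycle genes in 9 lists and markers of goblet, Paneth, enterocyte, stem, enteroendocrine, tuft and immune cells and dissociation stress) and the tests were chosen with earlier results of these data known. Full values were given for Mki67, Top2a, Pcna, Mcm2, Mcm6, Ccnb1, Cdk1 and Cdc20, for the 12 largest member changes in other cells, and for members that a result turned on; of the further lists, those past the threshold with the 2 largest changes in each direction were eligible, and 1 gene so chosen is not reported here. Alternatives were library size only, TMM without defensin and ribosomal genes, no filter, DESeq2 1.42.0, the replicate number as a block, thinned cells, 1 lower UMI limit, stricter class borders, doublets left out and each library left out in turn.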

Additional observations from a re-analysis of the deposited data

Results flagged for a closer look

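The changes of 8 members differed between defensin-high and other cells by the class by genotype term of edgeR (difference of the log2 changes, defensin-high minus other, adjusted over all genes tested). The difference was 0.5355 for Hmgb2 (adjusted p 7.8e-14), 0.3661 for Ube2c (9.2e-06), 0.3934 for Ccnb2 (0.0031), -0.5434 for Uhrf1 (0.0077), 0.3391 for Ccna2 (0.026), 0.2654 for Cdc20 (0.043), 0.3972 for Aurka (0.045) and 0.1709 for Cks2 (0.049). Each of the 8 was lower in both slc7a5 IEC-KO libraries than in both slc7a5 fl/fl libraries in both classes with TMM scaling. How many of all genes tested were separated in this way was not counted. The share of members called lay under that of all genes, 22.3%, and the last 4 named were close to the threshold. No group held enough samples to look for a single library far from the rest.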

How the results depend on the processing

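In other cells the 42 calls held at 34 to 42 members under every alternative, and all lost calls were replication genes. Leaving out each library in turn gave 37 to 42. In defensin-high cells 37 members were called, but 11 by library size only and 24 with cells thinned to 3500 UMIs (39 testable). With class borders of 40% and 10%, 24 were called. The border of 40% kept 1316 and 1674 defensin-high cells in the slc7a5 fl/fl libraries, against 400 and 418 in the slc7a5 IEC-KO libraries. The 8 differences between classes became 39 by library size only, 4 without a filter, 4 with doublets left out, 5 with the stricter borders, and 2 to 10 without each library in turn, with 2 without slc7a5 IEC-KO replicate 2. By library size only, 70.4% of all genes tested were called higher in defensin-high cells and 30.6% lower in other cells. The share of all genes that differed between the classes is not given for these settings, so the counts only describe the members. Of the further cell cycle genes, 99 were called in defensin-high cells, and 54 by DESeq2, 24 with thinned cells and 40 with the stricter borders.

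Other cells with 3 or more further cell cycle genes gave 42 called members, but 99.3% to 99.6% of other cells met that limit, so the limit of 15 was added after the data had been seen. It gave 20, and 19 by library size only, 12 with 1 lower UMI limit, 8 by DESeq2, and 10 to 20 without each library in turn (12 and 10 without slc7a5 fl/fl replicates 1 and 2, 20 and 17 without slc7a5 IEC-KO replicates 1 and 2). Also added then were the sums over all cells, the shares of all cells, the goblet limit of 100 UMIs and the ratio in subsets of other cells.

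Among the results and single genes followed through the settings, the direction turned in 6 cases. In defensin-high cells only Mki67, Top2a, Pcna, Mcm2, Mcm6, Ccnb1, Cdk1 and Cdc20 were followed singly. For the difference between classes and the limit of 15 further genes, only called members were. The ratio of replication to mitosis UMIs differed by -0.046 (log2) in other cells with under 5 members. The share of defensin-high cells with 5 or more members differed by 0.0205 percentage points at 2000 UMIs per cell. By library size only, the changes of Pcna (0.39) and Mcm2 (0.31) in defensin-high cells and the difference between classes of Uhrf1 (0.22) were above 0. Lig1 changed by -0.0293 in cells with 15 or more further genes and 1 lower UMI limit. Members not followed singly turned as well. In defensin-high cells by library size only, 10 of 20 replication and 21 of 22 mitosis genes lay below 0, against 20 and 22 in the main setting. In cells with 15 or more further genes, 11 of 20 replication genes lay below 0 with 1 lower UMI limit, against 3 without it. The cause was not tested. Among the single genes followed, 836 values kept direction and side of the threshold, 116 lost the call and 2 gained one.

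The replicate numbers did not pair the samples, as the deviations of same-numbered libraries correlated at 0.0547 in other and 0.00869 in defensin-high cells. A replicate block gave 42 and 37 called members there, 20 in cells with 15 or more further genes, and changed no count by over 1.5 times. Leaving out cells with 10 goblet UMIs was not possible, since every other cell had that many. Depth limits single calls, and those lost in other cells at 3500 UMIs per cell were Cdc6, Cdt1, Mcm2 and Mcm4.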
